A study of Homo sapiens with 6 samples.

Results

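The genes described here are those of the human mitochondrial genome, their copies in nuclear DNA and the nuclear genes that replicate, transcribe, cut, protect and degrade mitochondrial nucleic acids, measured in PC3 cells with and without depletion of VprBP. The rule takes them by chromosome and by name and uses no measured value, but it was written with earlier results of these data known. They numbered 47 of the 12227 genes of the deposited table: 15 genes of chromosome M, 7 nuclear copies and 25 genes of the machinery. All 25 machinery genes that were sought were listed, FASTKD4 under its other symbol TBRG4. GENCODE 29 annotates 37 genes on chromosome M, and its 22 tRNA genes are not among the 15 listed, so they were not analysed here. It also annotates 394 nuclear genes with symbols of the pattern used for copies, of which the 7 listed ones were analysed. The highest library of each listed gene held 150 or more estimated reads, so copies with fewer reads are not covered.

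PC3 is a human cell line long established from a prostate cancer. The control group holds 3 libraries, titled control sh and labelled wild type (WT), and the other group holds 3 libraries titled VprBP sh and labelled VprBP knockdown, where sh stands for a short hairpin RNA that lowers a target mRNA. VprBP is the protein of the gene DCAF1 and brings substrates to the CRL4 ubiquitin ligase. All cells were grown in the same serum-supplemented medium, and no other treatment is given. The titles run from sh1 to sh3 without saying if these are different hairpins, separate cultures or repeats of one RNA. The p-values therefore reflect the spread among these samples alone, and that spread may be technical. Values are estimated reads per gene after scaling of each library by the authors, and are given without a unit. Differences were tested with limma on log2(value + 0.5) over all 12227 genes, and a gene was called at a Benjamini-Hochberg adjusted p under 0.05.

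Libraries held between 22981863 and 39633828 estimated reads. Knockdown replicate 3 lay farthest from its group, at 6.25 and 6.69 (chi-square over its degrees of freedom, a distance between 2 libraries' reads) from the other knockdown libraries, where all other pairs within groups lay at 3.39 to 3.85. DCAF1 had values of 79.4, 78.5 and 78.7 in control replicates 1 to 3 and of 38.5, 41.1 and 40.2 in knockdown replicates 1 to 3 (limma log2 fold change -0.97, SE 0.047, adjusted p = 3.56e-11). The 3 knockdown libraries thus kept 50.6% of the control mean, and the groups did not overlap. All 5 epithelial markers examined were listed, and 4 of them were called, beside 60.9% of all listed genes (33.0% higher and 27.8% lower). KRT8 (378 in control and 619 in knockdown cells), KRT18 (455 and 693) and EPCAM (251 and 279) rose, CDH1 (342 and 323) fell, and KRT19 (825 and 829) was not called. The CDH1 call (limma adjusted p = 0.0315) was lost without control replicate 1 (0.105), 2 (0.0641) or 3 (0.0711). It was also lost without knockdown replicate 1 (0.0659) or 2 (0.104), and with the replicate number fitted as a block (0.0851). Of 12 markers of fibroblasts, immune cells and endothelium, 3 were listed: COL1A1 (24.4 and 24.7), CD68 (26.3 and 26.4) and PECAM1 (54.2 and 23.3). PECAM1 was called lower, without overlap of the groups (log2 fold change -1.2, SE 0.055, limma adjusted p = 1.59e-11), and COL1A1 and CD68 were not called. The part of all these markers in the results below was not tested.

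Human mitochondrial DNA is a small circle that encodes subunits of the respiratory chain and of ATP synthase, together with the rRNAs and tRNAs of the mitochondrial ribosome. Each strand is transcribed into long polycistronic RNAs by the polymerase POLRMT with the factors TFAM and TFB2M, and tRNA sequences between the genes are cut out to release the mRNAs and rRNAs. The level of each RNA reflects its synthesis, processing and decay. The libraries show that level alone, and only as far as their preparation captured each RNA. How evenly it did so was not tested.

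RNA of the mitochondrial genome made up a smaller share of the libraries from VprBP-depleted cells, with unequal differences from gene to gene. The 15 listed genes made up 5.57%, 5.65% and 5.53% of all values in control replicates 1 to 3 and 4.55%, 4.51% and 4.78% in knockdown replicates 1 to 3. The control mean was 5.58% ± 0.0634 and the knockdown mean 4.61% ± 0.144 (SD, n = 3 each), a ratio of 0.826. Every knockdown library lay below every control library, and an exact permutation test, two-sided, gave p = 0.1, the smallest p that 3 libraries against 3 allow. By limma, 12 of the 15 genes fell, 1 rose and 2 were not called, where 27.8% of all listed genes fell, 33.0% rose and 60.9% were called in either direction. The groups did not overlap for 12 of the 15, 11 lower and 1 higher, against 64.8% of all listed genes, 29.6% lower and 35.1% higher. The median log2 fold change of the 15 was -0.23, beside 0.02 over all genes. For this summed share, fewer mitochondrial genomes per cell, less RNA per genome and more RNA from other genes cannot be told apart. The bulk libraries give amounts relative to each library only.

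**Figure D1:**
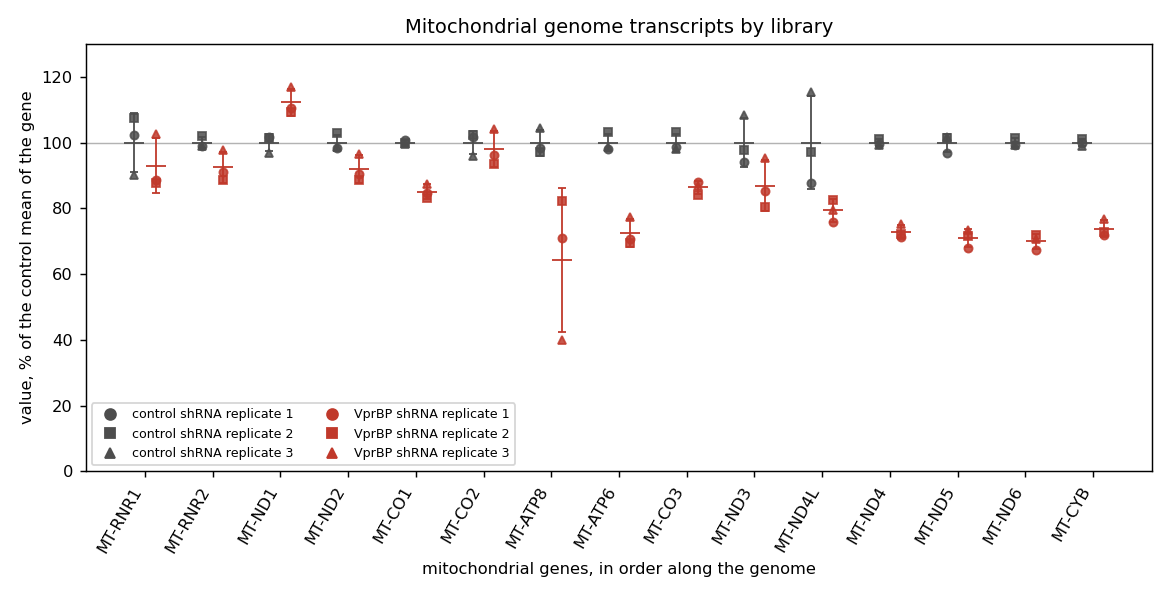
Value of each of the 15 mitochondrial genes in each library, in percent of the control mean of that gene (vertical axis), with genes in their order along the genome (horizontal axis); points are libraries, horizontal bars are group means and error bars are SD over 3 libraries. The knockdown means run from 64.4% of control for MT-ATP8 to 112% for MT-ND1.

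The genes of the mitochondrial ribosome's RNAs lie first on the heavy-strand transcript. MT-RNR2, the large rRNA (ENSG00000210082.2, chrM:1671-3229, plus strand, hg38), had values of 3424, 3523 and 3421 in the control libraries and 3149, 3065 and 3373 in the knockdown libraries. It fell by 7.53%, with no overlap between groups (log2 fold change -0.11, SE 0.035, limma adjusted p = 0.0094). MT-RNR1, the small rRNA (ENSG00000211459.2, chrM:648-1601, plus strand), had values of 646, 679 and 569 in control and 559, 554 and 648 in knockdown libraries, and the groups overlapped (log2 fold change -0.11, SE 0.060, limma adjusted p = 0.14). Without control replicate 3 or without knockdown replicate 3, MT-RNR1 was called lower, with a log2 fold change of -0.18 in both cases (limma adjusted p = 0.0109 and 0.00266, where all alternatives gave 0.00266 to 0.51).

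MT-ND1 was the only one of the 15 genes that rose. The other 6 mitochondrial mRNAs of complex I, the NADH dehydrogenase that feeds electrons into the respiratory chain, all fell. Over all listed genes, limma called 33.0% higher and 27.8% lower. MT-ND1 (ENSG00000198888.2, chrM:3307-4262, plus strand) had values of 2356, 2350 and 2246 in control libraries and 2562, 2536 and 2710 in knockdown libraries. All 3 knockdown libraries were above all 3 controls, by 12.3% in the mean (log2 fold change 0.17, SE 0.033, limma adjusted p = 0.000347). MT-ND2, the next mRNA on the transcript (chrM:4470-5511), moved the other way, from 3699, 3862 and 3708 to 3402, 3326 and 3632 (log2 fold change -0.12, SE 0.035, limma adjusted p = 0.00599).

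The complex I genes farther along the genome fell more. MT-ND4 (chrM:10760-12137, plus strand), the second most abundant mitochondrial mRNA per kilobase, had values of 8869, 9005 and 8837 in control libraries and 6335, 6441 and 6705 in knockdown libraries. It fell by 27.1%, and the distance between the groups was far wider than the spread within them (log2 fold change -0.46, SE 0.031, limma adjusted p = 2.27e-09). MT-ND5 (chrM:12337-14148, plus strand) fell by 29.01%, from 2582, 2705 and 2709 to 1812, 1910 and 1956 (log2 fold change -0.49, SE 0.034, limma adjusted p = 2.54e-09). MT-ND4L, which shares 7 bases with MT-ND4, fell by 20.7%, from 324, 359 and 427 to 280, 306 and 294 (limma adjusted p = 0.000581). Its control libraries were spread widely, and without control replicate 3 its log2 fold change moved from -0.32 to -0.22. MT-ND3, a short gene, fell from 562, 583 and 647 to 508, 479 and 569 with 1 knockdown library inside the control range (log2 fold change -0.20, SE 0.055, limma adjusted p = 0.00448). Its log2 fold change was -0.14 without control replicate 3 and -0.15 without knockdown replicate 2.

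MT-ND6, the only one of the 13 mRNAs encoded on the other strand (ENSG00000198695.2, chrM:14149-14673, minus strand), fell by 30.1%, a change of the same order as that of its heavy-strand neighbours. Its values were 578, 590 and 577 in control libraries and 392.1, 418 and 411 in knockdown libraries (log2 fold change -0.52, SE 0.032, limma adjusted p = 1.03e-09). Relative to the other 12 mRNAs summed, MT-ND6 stood at 1.14%, 1.15% and 1.15% in control and 0.939%, 1.01% and 0.935% in knockdown libraries. The mean log2 ratio was lower by 0.25, a difference beyond the spread of both groups (exact permutation test, two-sided, p = 0.1, the smallest possible). No source used here says whether the authors' counting used strand, so the MT-ND6 row may also hold reads of the opposite strand.

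The cytochrome b mRNA of complex III, the next link of the respiratory chain, fell by about as much as MT-ND4. MT-CYB, the last mRNA of the heavy-strand transcript (chrM:14747-15887, plus strand), had values of 2667, 2704 and 2645 in control libraries and 1919, 1948 and 2051 in knockdown libraries. The difference was 26.2% of the control mean (log2 fold change -0.44, SE 0.031, limma adjusted p = 4.38e-09). The ratio of MT-CYB to MT-ND1, the last and the first mRNA of that transcript, chosen after their values were seen, was 1.13, 1.15 and 1.18 in control libraries. In knockdown libraries it was 0.749, 0.768 and 0.757. This ratio does not depend on library scaling. Each of the genes alone already separated the groups, in opposite directions, so their ratio had to separate them too.

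Among the cytochrome c oxidase (complex IV) mRNAs, MT-CO1 and MT-CO3 fell by similar shares and MT-CO2 was not called. MT-CO1 (chrM:5904-7445, plus strand), the most abundant gene of the group, had 18676, 18506 and 18440 in control and 15722, 15397 and 16220 in knockdown libraries. It fell by 14.9% (log2 fold change -0.23, SE 0.031, limma adjusted p = 6.99e-06). MT-CO3 (chrM:9207-9990) fell by 13.6%, from 2521, 2632 and 2502 to 2249, 2145 and 2217 (log2 fold change -0.21, SE 0.031, limma adjusted p = 2.03e-05). Between them on the genome, MT-CO2 (chrM:7586-8269) had 4239, 4268 and 4000 in control and 4016, 3898 and 4343 in knockdown libraries. These ranges overlapped (log2 fold change -0.03, SE 0.039, limma adjusted p = 0.52), although without knockdown replicate 3 MT-CO2 was called lower at a log2 fold change of -0.07 (limma adjusted p = 0.0402).

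The 2 ATP synthase genes of the mitochondrial genome fell, MT-ATP6 by 27.6% and MT-ATP8 by 35.6%. MT-ATP6 (ENSG00000198899.2, chrM:8527-9207, plus strand) had values of 4017, 4221 and 4043 in control and 2890, 2838 and 3165 in knockdown libraries (log2 fold change -0.47, SE 0.038, limma adjusted p = 2.43e-08). MT-ATP8 (chrM:8366-8572, plus strand) had 71.9, 71.1 and 76.5 in control and 52.0, 60.1 and 29.3 in knockdown libraries (log2 fold change -0.69, SE 0.163, limma adjusted p = 0.00164). Knockdown replicate 3 was the low library, and without it the log2 fold change of MT-ATP8 was -0.38. The genes are read from one bicistronic mRNA in different frames and share 46 bases, shown here because reads that fall in them fit both genes. The overlap (chrM:8527-8572, plus strand, from the GENCODE 29 transcripts on GRCh38, in lower case throughout) is:
MT-ATP8 and MT-ATP6: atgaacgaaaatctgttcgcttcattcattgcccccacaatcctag
Although both proteins come from that mRNA, MT-ATP6 was listed at 6011 per kilobase and MT-ATP8 at 353 per kilobase in control cells.

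Along the heavy-strand transcript the differences were larger for genes that lie farther from its start. Over the 14 plus-strand genes in genome order, Spearman's rho between position and log2 fold change was -0.68 and Pearson's r with the start coordinate was -0.65. Over the 12 mRNAs alone these were -0.58 and -0.64. These values describe genes that share 6 libraries and 1 transcript, and carry no test. The order was not strict: MT-CO2, MT-CO3 and MT-ND3 differed less than MT-ATP6, which lies between MT-CO2 and MT-CO3.

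**Figure D2:**
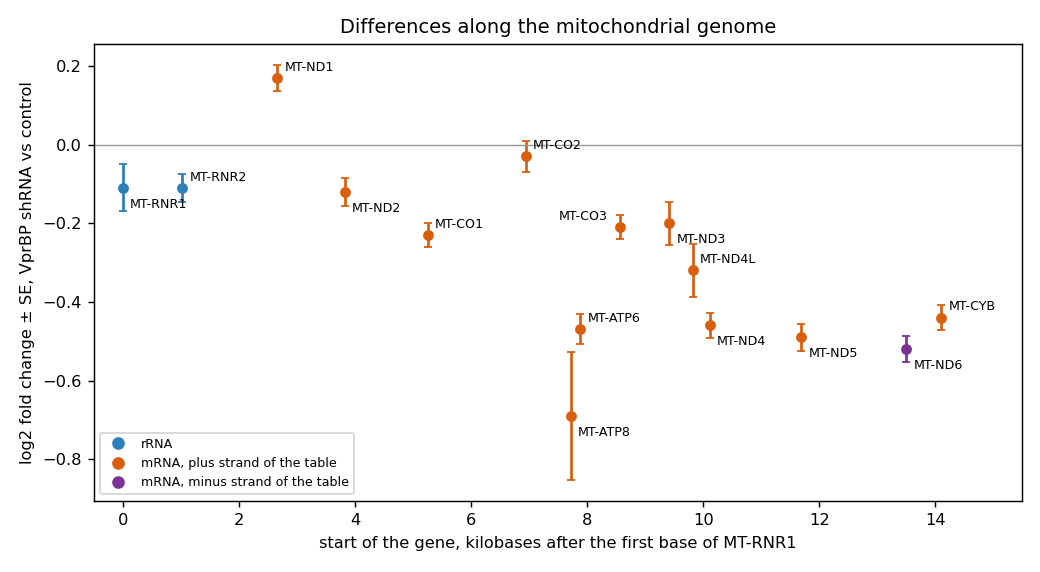
Log2 fold change between knockdown and control cells (vertical axis, points, with limma standard errors as bars) against the start of each mitochondrial gene in kilobases after the first base of MT-RNR1 (horizontal axis), coloured by RNA type and strand. MT-ND1 is the only point above 0, at 0.17, and MT-ND4, MT-ND5, MT-ND6 and MT-CYB lie together between -0.44 and -0.52.

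The shares of single genes within mitochondrial RNA also differed between the groups. MT-ND1 formed 4.27%, 4.19% and 4.10% of the mitochondrial values in control libraries and 5.59%, 5.60% and 5.61% in knockdown libraries. MT-CO2 formed 7.53% ± 0.206 in control and 8.78% ± 0.194 in knockdown cells, and MT-ND4 16.1% ± 0.0295 and 14.0% ± 0.213 (SD, n = 3 each). MT-CO1 kept about the same share, 33.5% ± 0.419 and 33.9% ± 0.365 (SD, n = 3 each). The rRNAs stood at 7.96%, 8.10% and 7.85% of the mRNA sum in control and 8.80%, 8.68% and 9.08% in knockdown libraries, with no overlap. The mean log2 ratio of rRNA to mRNA was higher by 0.15 in knockdown cells (exact permutation test, two-sided, p = 0.1, the smallest possible). How evenly the library preparation captured rRNA and mRNA was not tested.

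Per kilobase of gene, control levels ran from 12024 for MT-CO1 through 6461 for MT-ND4, 6095 for MT-CO2 and 6011 for MT-ATP6 to 662 for MT-RNR1 and 353 for MT-ATP8. Knockdown levels per kilobase were 10233 for MT-CO1, 5973 for MT-CO2, 4712 for MT-ND4 and 4353 for MT-ATP6, so that MT-CO2 stood above MT-ND4 there. In control cells the levels of MT-CO2 and MT-ATP6 differed by less than their spread, since their SDs were 147 and 111 on values of 4169 and 4094.

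Copies of mitochondrial DNA inserted in the nuclear genome carry nearly the same sequence as their parent genes, and reads from one can be counted for the other. Of the 7 listed copies, 6 form one block of chromosome 1, from MTND1P23 at 629062 to the end of MTCO3P12 at 634922, all on the plus strand. The other, MTND4P12, is on chromosome 5 (134926660 to 134928036, minus strand), inside the gene PCBD2 of the opposite strand. Aligned to their parents, the chromosome 1 copies were 96.8% to 98.6% identical over the listed length, and 29.1% to 61.9% of their 50-base windows occurred unchanged in the parent. MTND4P12 was 95.7% identical, with 58 mismatches over 1376 aligned bases, and 3.5% of its 50-base windows occurred in MT-ND4. The most abundant copy is shown with its parent to make the likeness visible: the 120 aligned bases with the most mismatches, 4 in number, with mismatched bases in capitals (chrM:8599-8718 and chr1:633768-633887, both plus strand, GENCODE 29 transcripts on GRCh38).
MT-ATP6: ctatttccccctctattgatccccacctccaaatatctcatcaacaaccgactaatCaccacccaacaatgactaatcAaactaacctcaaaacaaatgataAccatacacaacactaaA
MTATP6P1: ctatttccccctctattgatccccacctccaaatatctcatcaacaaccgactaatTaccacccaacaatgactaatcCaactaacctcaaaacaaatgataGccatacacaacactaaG
The more diverged chromosome 5 copy had 10 mismatches in its 120 most different bases (chrM:10808-10927, plus strand, and chr5:134927869-134927988, minus strand).
MT-ND4: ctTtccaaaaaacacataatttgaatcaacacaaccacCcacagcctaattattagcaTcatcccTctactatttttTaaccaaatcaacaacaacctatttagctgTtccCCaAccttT
MTND4P12: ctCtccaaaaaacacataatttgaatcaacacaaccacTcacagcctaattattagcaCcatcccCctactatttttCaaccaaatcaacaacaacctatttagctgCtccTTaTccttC

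By limma 6 of the 7 copies fell and MTND1P23 was not called, where 27.8% of all listed genes fell and 60.9% were called. The median of the copies' log2 fold changes was -0.51, beside 0.02 over all genes. MTATP6P1, listed at 244, 256 and 302 in control and 193, 201 and 166 in knockdown libraries, fell by 30.1% with no overlap (log2 fold change -0.51, SE 0.070, limma adjusted p = 9.26e-06). Its parent MT-ATP6, whose sequence is shown above, fell by 27.6%. MTND4P12 had 23.6, 19.7 and 23.7 in control and 14.6, 16.5 and 5.89 in knockdown libraries (log2 fold change -0.95, SE 0.237, limma adjusted p = 0.00248). MTCO1P12, the copy of MT-CO1, had 144, 120 and 162 against 111, 132 and 90.1 and overlapped between groups (log2 fold change -0.36, SE 0.107, limma adjusted p = 0.0087). MTND1P23 was the copy not called, at 5.25, 4.73 and 4.57 against 4.04, 4.68 and 2.25 (limma adjusted p = 0.0789), whereas its parent MT-ND1 rose.

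Every copy had its lowest value in knockdown replicate 3. There the 7 copies stood at 28.3% (MTCO3P12) to 84.3% (MTATP6P1) of the mean of the other knockdown libraries, while their parents stood at 100.9% (MT-CO3) to 110.5% (MT-ATP6). The low values of the copies in that library thus did not go with low values of the parents. Low values there were not limited to copies: MT-ATP8, a mitochondrial gene without a listed copy, stood at 52.2% by the same measure. Over all listed genes, the same percentage had a median of 100.5%, and its central range, from the fifth percentile up to the matching upper one, was 82.7% to 116%. Without knockdown replicate 3 the log2 fold changes were smaller for each copy: -0.43 for MTATP6P1, -0.51 for MTND4P12, -0.22 for MTCO1P12 and -0.45 for MTCO3P12, all still called by limma. MTND2P28 (-0.21, adjusted p = 0.0657) and MTCO2P12 (-0.19, adjusted p = 0.133) were then not called by limma, and MTND1P23 was at -0.14. Calls were also lost for MTND2P28 without control replicate 3 (limma adjusted p = 0.0529), for MTCO2P12 without control replicate 1 or 3 (0.113 and 0.0527) and for MTCO3P12 without control replicate 1 (0.0513), and MTND1P23 was called without knockdown replicate 2 (0.0195).

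Summed, the copies came to 1.02%, 0.961% and 1.21% of their parents in control libraries and 0.942%, 1.05% and 0.717% in knockdown libraries. The groups overlapped, and the mean log2 ratio differed by -0.24 (exact permutation test, two-sided, p = 0.4). Without knockdown replicate 3 this difference was -0.09. MTATP6P1 stood apart from the other copies, at 6.53% of its parent in control cells against 0.167% to 0.765% for the rest.

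**Figure D3:**
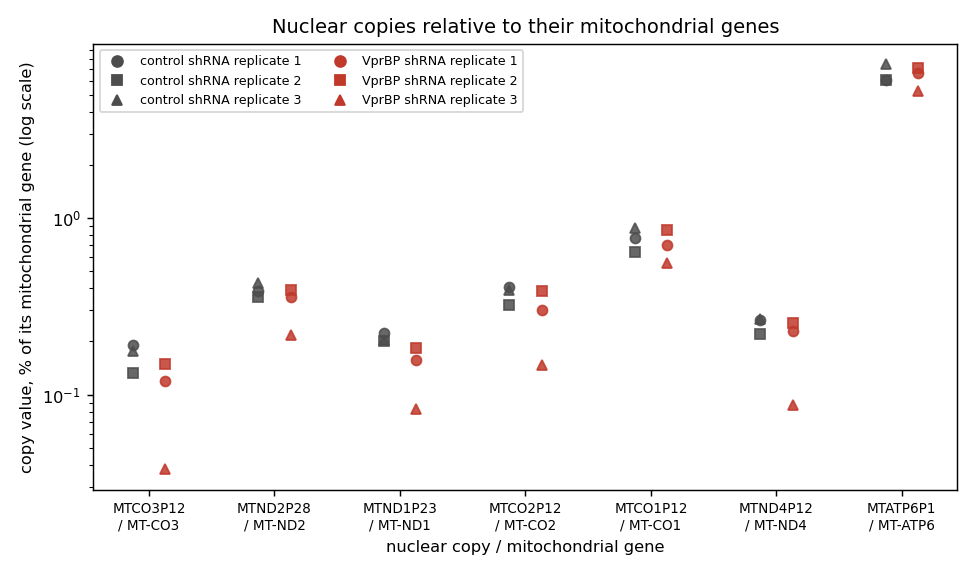
Value of each nuclear copy in percent of its mitochondrial parent gene (vertical axis, log scale) in each library, control in grey and knockdown in red, for the 7 copies named with their parents (horizontal axis). Knockdown replicate 3, the red triangle, is the lowest point of every copy. The other 2 knockdown libraries lie below all control points for MTND1P23, as does knockdown replicate 1 for MTCO2P12 and MTCO3P12. Elsewhere these 2 libraries lie within the range of the control points.

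The nuclear genes of the machinery moved in both directions. Of 25, limma called 9 higher and 6 lower, and 10 were not called, a share of called genes near the 60.9% of all listed genes. Their median log2 fold change was 0.04, beside 0.02 over all genes. Among these genes FASTKD3, MTERF2, POLG, SLIRP and TWNK overlap a listed gene on the opposite strand and FASTKD5 one on the same strand, so reads there may be shared.

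POLRMT and TFB1M fell and TFAM rose, while TFB2M and TEFM were not called. POLRMT, the RNA polymerase of mitochondria (ENSG00000099821.14, chromosome 19, 617221 to 633537, minus strand), fell by 23.9%, from 85.1, 78.6 and 88.9 to 68.9, 64.9 and 58.5, with no overlap (log2 fold change -0.39, SE 0.059, limma adjusted p = 2.89e-05). TFAM, which packages mitochondrial DNA and bends its promoters (ENSG00000108064.11, chromosome 10, 58385345 to 58399220, plus strand), rose by 17.0%, from 145, 152 and 145 to 171, 172 and 173 (log2 fold change 0.23, SE 0.036, limma adjusted p = 4.76e-05). TFB2M, which opens the promoter for the polymerase, was at 38.4 ± 2.41 and 39.4 ± 1.45 (SD, n = 3 each; limma adjusted p = 0.6). Its relative TFB1M, a methyltransferase of the small rRNA, fell from 19.7, 21.7 and 18.2 to 17.1, 17.4 and 15.54 (log2 fold change -0.24, SE 0.081, limma adjusted p = 0.0158). That call was lost without control replicate 2 (limma adjusted p = 0.0881) and without knockdown replicate 3 (0.0508). TEFM, the elongation factor, was at 7.87, 7.75 and 8.93 in control and 7.98, 8.49 and 12.3 in knockdown libraries, high in knockdown replicate 3 only (limma adjusted p = 0.226).

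All 4 members of the MTERF family were called higher, as were 33.0% of all listed genes, and the calls of MTERF2 and MTERF4 were lost when single libraries were left out. MTERF1, which binds downstream of the rRNA genes and stops transcription there, went from 15.6, 16.1 and 17.6 to 18.9, 20.9 and 21.0 (log2 fold change 0.29, SE 0.077, limma adjusted p = 0.00364). MTERF3, a factor of mitochondrial ribosome assembly, rose by 15.4%, from 46.8 ± 2.10 to 54.0 ± 2.38 (SD, n = 3 each; limma adjusted p = 0.00336). MTERF2 rose from 10.7 ± 0.383 to 12.9 ± 0.607 (SD, n = 3 each; limma adjusted p = 0.0185), a call lost without control replicate 1 (0.0525), control replicate 3 (0.0523) or knockdown replicate 2 (0.0774). MTERF4, which guides the rRNA methyltransferase NSUN4, had the largest fold but the lowest level of the family, 3.83 ± 0.582 against 5.61 ± 1.11 (SD, n = 3 each; limma adjusted p = 0.0143). Its call was lost without control replicate 1 (limma adjusted p = 0.068) or knockdown replicate 3 (0.0719).

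Among the 4 replication genes, the helicase and the accessory polymerase subunit fell while the catalytic subunit was not called. TWNK, the Twinkle helicase, fell by 26.8%, from 47.7, 42.9 and 46.1 to 32.1, 31.3 and 36.6 (log2 fold change -0.45, SE 0.066, limma adjusted p = 2.15e-05). POLG2, the accessory subunit of DNA polymerase gamma, fell by 22.6%, from 22.9, 22.6 and 23.1 to 15.9, 19.4 and 17.7 (log2 fold change -0.37, SE 0.077, limma adjusted p = 0.000672). POLG, the catalytic subunit, was at 71.9 ± 5.96 and 70.7 ± 3.35 (SD, n = 3 each; limma adjusted p = 0.763). SSBP1, the single-stranded DNA binding protein, rose by 12.9%, from 87.4 ± 3.75 to 98.7 ± 3.58 (SD, n = 3 each; limma adjusted p = 0.00321).

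**Figure D4:**
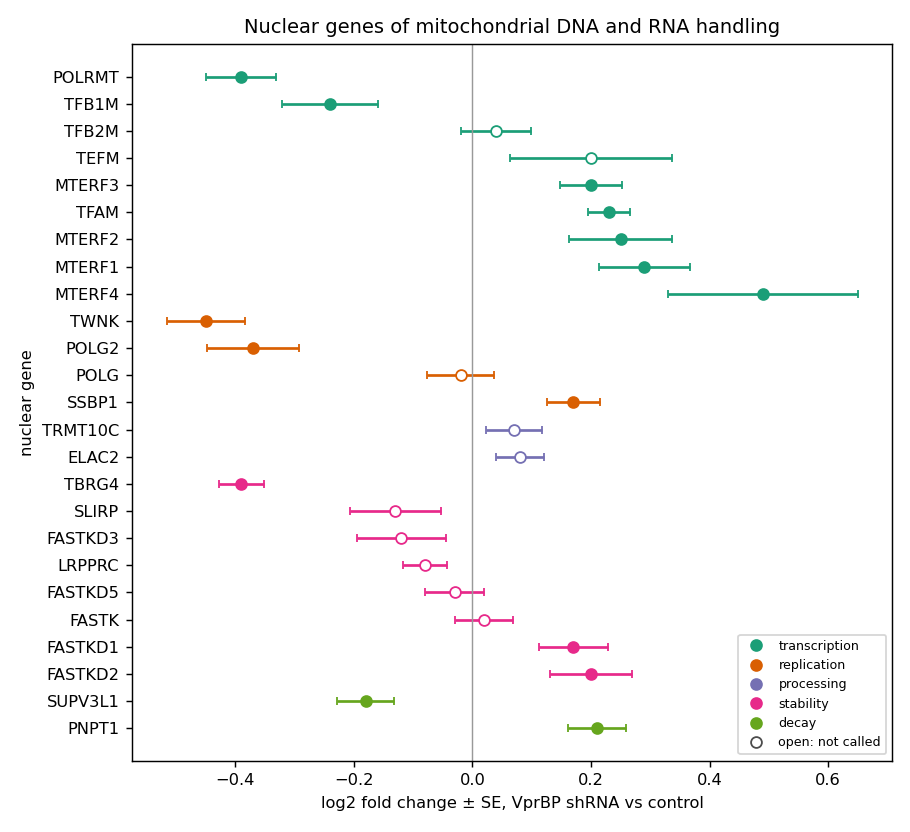
Log2 fold change between knockdown and control cells (horizontal axis, points, with limma standard errors as bars) for the 25 nuclear genes of mitochondrial DNA and RNA handling (vertical axis), coloured by role; filled points were called and open points were not. POLRMT, TWNK, POLG2 and TBRG4 lie between -0.37 and -0.45. TFAM, all 4 MTERF genes, PNPT1, FASTKD2 and TEFM lie at 0.20 or above, TEFM as an open point.

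The members that take part in cutting the primary transcript, ELAC2 and TRMT10C, were not called. ELAC2, which cuts at the 3′ end of tRNAs, was at 102, 99.7 and 96.2 in control and 106, 104 and 106 in knockdown libraries, a difference of 6.03% without overlap of the groups (log2 fold change 0.08, SE 0.040, limma adjusted p = 0.0801). TRMT10C, a subunit of the complex that cuts at the 5′ end, was at 61.1 ± 1.52 and 64.4 ± 2.91 (SD, n = 3 each; limma adjusted p = 0.192). HSD17B10, its partner in that complex, is among the further genes given below and was called higher.

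Of the 8 genes grouped here under the stability of mitochondrial RNA, TBRG4 had the largest change. TBRG4, also named FASTKD4, is a FAST kinase domain protein that stabilises several mitochondrial mRNAs. It fell by 23.6%, from 162, 153 and 160 to 123, 122 and 118 (ENSG00000136270.14, chromosome 7, 45100100 to 45112047, minus strand; log2 fold change -0.39, SE 0.038, limma adjusted p = 2.41e-07). FASTKD1 rose by 12.7%, from 33.1, 35.7 and 37.4 to 40.7, 39.5 and 39.4 (limma adjusted p = 0.0172), and its call was lost without control replicate 1 (0.103) or knockdown replicate 1 (0.0641). FASTKD2, which binds the large rRNA, rose by 15.0%, from 58.4, 60.9 and 51.9 to 61.6, 61.9 and 73.3 (limma adjusted p = 0.0202), and its call was lost without control replicate 3 (0.118) or knockdown replicate 3 (0.0927).

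The other 5 stability genes were not called. LRPPRC and SLIRP form the complex that keeps most mitochondrial mRNAs stable and polyadenylated. LRPPRC was at 267, 278 and 271 in control and 251, 249 and 269 in knockdown libraries (log2 fold change -0.08, SE 0.037, limma adjusted p = 0.0623). It was called lower without knockdown replicate 3 (limma adjusted p = 0.00377), by median-ratio scaling (0.0181), by library-size scaling (0.0187) and by scaling to the genes outside chromosome M (0.00952). SLIRP was at 43.8 ± 2.98 and 40.0 ± 4.98 (SD, n = 3 each; limma adjusted p = 0.144) and was called lower without knockdown replicate 1 (0.0338). FASTK was at 93.7 ± 3.56 in control cells and differed by 1.43%, FASTKD5 was at 53.7 ± 1.71 and 52.7 ± 2.11, and FASTKD3 at 31.0 ± 1.65 and 28.5 ± 3.18 (SD, n = 3 each). FASTKD3 was called lower without knockdown replicate 3 (log2 fold change -0.20, limma adjusted p = 0.0147).

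The helicase and the nuclease of mitochondrial RNA decay, which work as one complex, moved apart. PNPT1, a polynucleotide phosphorylase that was identified as an interferon-inducible gene, rose by 15.4%, from 65.3, 71.3 and 64.5 to 74.4, 78.7 and 79.01 (log2 fold change 0.21, SE 0.049, limma adjusted p = 0.00182). SUPV3L1, its helicase partner, fell by 11.9%, from 76.4, 80.5 and 82.2 to 66.7, 70.9 and 73.1 (log2 fold change -0.18, SE 0.048, limma adjusted p = 0.00365). Neither gene overlapped between groups.

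NRF1, a transcription factor of many nuclear genes for mitochondria, binds GC-rich palindromic sites, and the letters GCGCANGCG, where N is any base, make up the core of such a site. RefSeq promoter windows, from 250 bases before to 50 bases after the gene start on GRCh38.p14, were found for 22 of the 25 machinery genes and searched on both strands. The motif was in 5 of the 22 (POLG2, POLRMT, TFAM, TFB1M and TFB2M) and in 8.05% of all 27305 promoters. Of these 5 genes, POLG2, POLRMT and TFB1M fell, TFAM rose and TFB2M was not called. The promoters of POLRMT, which fell, and TFAM, which rose, are shown because both hold a match, given in capitals (chr19:633488-633787, minus strand, and chr10:58385160-58385459, plus strand).
POLRMT: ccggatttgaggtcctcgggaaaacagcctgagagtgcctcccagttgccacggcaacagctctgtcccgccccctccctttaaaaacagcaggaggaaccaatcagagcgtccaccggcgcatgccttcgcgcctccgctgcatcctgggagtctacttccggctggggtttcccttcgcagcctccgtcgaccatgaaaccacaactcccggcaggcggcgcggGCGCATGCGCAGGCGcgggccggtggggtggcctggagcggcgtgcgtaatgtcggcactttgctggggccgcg
TFAM: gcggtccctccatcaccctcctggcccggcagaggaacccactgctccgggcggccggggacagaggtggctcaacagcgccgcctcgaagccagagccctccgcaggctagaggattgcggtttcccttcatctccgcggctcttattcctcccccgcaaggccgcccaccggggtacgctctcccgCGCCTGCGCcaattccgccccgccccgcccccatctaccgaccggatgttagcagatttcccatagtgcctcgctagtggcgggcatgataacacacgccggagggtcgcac
In POLRMT, matches that overlap each other start 24, 23 and 18 bases before the gene start, and in TFAM the match starts 62 bases before it, both counted from RefSeq's gene start. For TFAM that start lies 65 bases downstream of the deposited one, so its match begins 3 bases after the deposited start, while for POLRMT both starts are the same. A match of these letters is no measurement of binding. NRF1 itself was at 19.7 ± 1.33 and 19.3 ± 1.59 (SD, n = 3 each; limma adjusted p = 0.724).

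Nuclear regulators of mitochondrial gene expression, NRF1 among them, were taken from a further list. Of 14 sought, 12 were listed, of which limma called 2 higher and 6 lower. That is 66.7% called, beside 60.9% of all listed genes, of which 33.0% were called higher and 27.8% lower. Their median log2 fold change was -0.11, beside 0.02 over all genes. PPARGC1B, a coactivator of mitochondrial biogenesis, had the largest change, from 54.1, 54.2 and 54.8 to 23.5, 27.4 and 25.4 (log2 fold change -1.08, SE 0.061, limma adjusted p = 2.32e-10). ESRRA, the nuclear receptor that this coactivator works with, fell from 133, 120 and 137 to 92.8, 96.7 and 94.4 (log2 fold change -0.46, SE 0.047, limma adjusted p = 4.44e-07). HCFC1, a cofactor that binds several promoter factors, fell from 177 ± 10.7 to 138 ± 15.0, whereas GABPB1, a subunit of the factor GABP, rose from 25.1 ± 1.29 to 31.1 ± 1.22 (SD, n = 3 each; limma adjusted p = 8.63e-05 and 0.000595). The GABP gene GABPA moved the other way, from 64.9 ± 1.91 to 57.4 ± 3.62 (SD, n = 3 each; limma adjusted p = 0.00817), and GABPB2 was not called (0.131). The deacetylase gene SIRT1 rose from 29.97 ± 0.638 to 35.2 ± 0.927 (SD, n = 3 each; limma adjusted p = 0.00226).

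Of 25 further genes of mitochondrial RNA cutting, modification and turnover, all listed, limma called 8 higher and 4 lower, 48.0% in all beside 60.9% of all listed genes (33.0% higher and 27.8% lower). Their median log2 fold change was -0.02, beside 0.02 over all genes. HSD17B10, a partner of TRMT10C in the 5′ cutting complex, rose from 73.8 ± 1.09 to 91.4 ± 3.15 (SD, n = 3 each; limma adjusted p = 1.35e-05). NSUN3, a tRNA methyltransferase, and MRM3, an rRNA methyltransferase, rose by log2 fold changes of 0.28 and 0.23 (limma adjusted p = 0.00632 and 0.0048). METTL15, a methyltransferase of the small rRNA, fell from 17.4 ± 1.25 to 13.5 ± 0.601 (SD, n = 3 each; limma adjusted p = 0.00147). The pseudouridine synthase genes RPUSD4 and PUS1 fell by log2 fold changes of -0.16 and -0.15 (limma adjusted p = 0.0175 and 0.0244). The RPUSD4 call was lost without control replicate 3 (limma adjusted p = 0.0843), knockdown replicate 1 (0.0501) or knockdown replicate 3 (0.0509), and the PUS1 call without control replicate 3 (0.105) or knockdown replicate 3 (0.0829).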

How the data were processed

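RNA sequencing of 6 PC3 samples was analysed, 3 per group, taken from the titles. The labels' protocols name total RNA and a SMARTer mRNA kit. The deposited values are named raw counts but are a scaled signal, as read from the values: the upper quartile lay between 78.99 and 79.02 in every library, and low values were multiples of one step. Between 55.5% and 65.0% of a library's values were whole multiples, within 0.02 reads, so no count model was used, although one had been planned for counts. Per the submitters' processing notes, Partek and hg38 were used. No source used here names an aligner, quantifier or scaling method. Estimated reads are values divided by the step.

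limma 3.58.1 (R 4.3.3) was fitted with a mean-dependent prior to log2(value + 0.5) of all 12227 genes in 6 samples, after a test on simulated data. Fold changes are on that scale, which understates changes of low genes, and percent differences are ratios of group means. Means are ± SD. Sums and ratios were compared by exact permutation over the 20 assignments. The names covered every listed member, DCAF1 and, from each further list, up to 3 called genes per direction with the largest change. KRT19, COL1A1, CD68, NRF1, GABPA and GABPB2 fall outside that rule and were named after their values were seen. Members and lists were chosen with earlier results of these data known. Table ends were reduced by 1, after which 6951 of 12001 genes found in GENCODE 29 had the same end and 153 without it. Copies were aligned with edlib 1.3.9. Alternatives were other scalings and pseudocounts (0.1 and 2), limma-voom on estimated reads, a mean of 5 or more, a replicate block and leaving out each library. Of 12 symbols of other nuclear copies that were sought, those of MTRNR2L among them, 0 were listed, so these copies were not analysed here.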

Additional observations from a re-analysis of the deposited data

How the results depend on the processing

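Under 14 alternatives, between 12 and 14 mitochondrial genes were called lower and 1 higher, between 4 and 7 nuclear copies lower, and between 6 and 9 machinery genes higher and 5 to 7 lower. With the settings used above, 60.9% of all listed genes were called, 33.0% higher and 27.8% lower. That share is not given here for the alternatives, so these counts show only how stable the calls were. The difference in mitochondrial share lay between -1.05 and -0.919 percentage points, including the values with nuclear copies and without the rRNAs, and DCAF1 kept its call, with log2 fold changes from -1.01 to -0.95. The difference in the log2 ratio of copies to parents ranged from -0.364 to -0.0865 when libraries were left out. A change of sign occurred only in genes that were not called. FASTK moved from 0.02 to -0.01 with median-ratio scaling, -0.00 with library-size scaling and -0.02 with scaling to genes outside chromosome M. Leaving out single libraries gave -0.02 to 0.07 for FASTK, -0.07 to 0.00 for MT-CO2, -0.01 to 0.08 for TFB2M, -0.08 to 0.04 for POLG and -0.05 to 0.01 for FASTKD5. The causes were not tested. With FASTKD1 and FASTKD2 the call was lost when scaled to genes outside chromosome M (limma adjusted p = 0.0556 and 0.0536), and MT-RNR1 was called lower there (0.0481). The median of all genes moved between -0.013 and 0.027 over the settings. Same-numbered samples did not deviate together (correlations of 0.02, -0.16 and -0.17), so the numbers were not used as pairs. With the number as a replicate block, 12 mitochondrial genes fell and 1 rose, 6 copies fell, 9 machinery genes rose and 6 fell, and no call of a member changed. MTCO3P12, MTERF4 and MTND1P23 have no value under the mean of at least 5. Rows with few reads, such as MTCO3P12 with 19 estimated reads in its lowest library, are limited by depth.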

Other observations

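Genes that maintain mitochondrial DNA beyond the replication enzymes moved in both directions. All 14 sought were listed, and limma called 3 higher and 3 lower, 42.9% in all beside 60.9% of all listed genes. Their median log2 fold change was -0.05, beside 0.02 over all genes. EXOG, a mitochondrial nuclease, rose from 6.64, 7.51 and 7.63 to 11.4, 12.95 and 13.8, with no overlap (log2 fold change 0.77, SE 0.103, limma adjusted p = 8.4e-06). DNA2, a nuclease and helicase of nuclear and mitochondrial DNA, rose from 31.9 ± 2.98 to 44.1 ± 1.80, and LONP1, a matrix protease, fell from 352 ± 15.0 to 301 ± 12.7 (SD, n = 3 each; limma adjusted p = 1.67e-05 and 0.00013). TOP1MT, the mitochondrial topoisomerase, fell from 74.2 ± 2.17 to 64.3 ± 2.74 (SD, n = 3 each; limma adjusted p = 0.00135). TK2, a thymidine kinase, rose and ENDOG, a nuclease, fell (limma adjusted p = 0.00853 and 0.0289). The TK2 call was lost without knockdown replicate 2 (limma adjusted p = 0.0565) and the ENDOG call without control replicate 1 (0.0562), control replicate 3 (0.104) or knockdown replicate 3 (0.154).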
